A study of Mesocricetus auratus with 6 samples.

Results

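The 10 genes described here encode proteins that copy, package, transcribe or cut mitochondrial DNA, namely Endog, Exog, Tfam, Tfb1m, Tfb2m, Polrmt, Polg, Polg2, Ssbp1 and Top1mt. They were chosen by name, with earlier results of these data known. Endog was selected on its lower FPKM in the STYK1/NOK libraries of this same data set, and the list was drawn up around it. All 10 were found among the 16078 genes of each library by matching NCBI Gene IDs to hamster symbols, and all 10 passed the filter for low values, which asked for a group mean of 1 FPKM or more, with every library above that level. The libraries came from BHK21, a line grown from baby hamster kidney, labelled as kidney with an age of 1 day. There were 3 libraries from BHK21 cells transfected with STYK1/NOK (called STYK1 1 to 3) and 3 from BHK21 cells transfected with the empty plasmid pCMV-Myc (vector 1 to 3). STYK1 (NOK) is a kinase-like protein that spans the membrane, and pCMV-Myc is a mammalian expression plasmid. RNA was taken 48 after transfection, a time whose unit the labels leave out. Whether the 3 libraries of a group are separate cultures is not given in the labels, so the spread that the p-values rest on may be only technical. The share of cells that took up plasmid is not given either, and in bulk RNA a change in some of the cells cannot be told apart from a smaller change in all of them.

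Mitochondrial DNA is a small circular genome present in many copies per cell and packed with TFAM into nucleoids. It is copied by the polymerase POLG with its accessory subunit POLG2 and the single-strand binding protein SSBP1, and it is transcribed by POLRMT, a polymerase related to those of phages, with the help of TFAM and TFB2M. All of these proteins are encoded in the nucleus, made in the cytosol and imported. Nucleases belong to the same system: ENDOG, of the intermembrane space, is known for cutting nuclear DNA after its release in dying cells and, in the nematode Caenorhabditis elegans, for breaking down paternal mitochondria, while EXOG is a related enzyme of the inner membrane that takes part in repair.

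The values were FPKM, fragments scaled by transcript length and by the mapped fragments of the library. They can be set side by side between genes only roughly, because the annotation and the handling of shared reads are not given. FPKM summed to 528160, 530277 and 542638 in STYK1 1, 2 and 3, and to 619840, 554681 and 557946 in vector 1, 2 and 3. Every STYK1 sum thus lay below every vector sum, and the cause was not tested. The number of fragments behind a value is unknown. Relative to STYK1 1, depth estimated from the most frequent ratio of low values lay between 0.979 and 1.03. Vector 1 stood apart from the rest, with correlations of 0.963 to 0.976 with the other libraries (Pearson, across 11464 tested genes, which are not independent), against 0.988 to 0.993 among pairs without it. The hamster gene Styk1 measured 2.30 ± 0.229 FPKM in STYK1 and 1.73 ± 0.204 FPKM in vector libraries (SD, n = 3 each), with every STYK1 library above every vector library, and the difference did not pass (limma-trend, Benjamini-Hochberg adjusted p = 0.470). Whether its values count reads from the plasmid is unknown, so they may not measure the transfected STYK1/NOK. Of fibroblast markers, Vim, Fn1 and Pdgfrb were present (Pdgfrb at 35.7 to 38.0 FPKM in STYK1 and 35.2 to 39.2 FPKM in vector libraries), but Col1a1, Col1a2, Col3a1 and Thy1 all lay near or under 1 FPKM in both groups. Summed over 5 epithelial markers, the level was 0.09 to 0.38 FPKM in STYK1 and 0.19 to 0.4 FPKM in vector libraries. Endothelial and leukocyte markers were near 0 apart from Cdh5 (6.13 to 9.11 FPKM in STYK1, 4.45 to 8.23 FPKM in vector), Csf1r (2.91 to 3.56 FPKM in STYK1, 3.03 to 3.70 FPKM in vector) and Cd68 (279 to 295 FPKM in STYK1, 288 to 351 FPKM in vector).

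The members covered a wide range of levels. Ssbp1, which coats single-stranded mitochondrial DNA, was the most abundant at a mean of 100.2 FPKM over the 6 libraries, at or above 92.1% of tested genes. Exog was the least abundant at 3.60 FPKM, at or above 14.5% of them. Between these lay Tfam at 39.6, Tfb1m at 26.6, Polrmt at 23.3, Polg at 16.5, Tfb2m at 14.2, Endog at 11.9, Top1mt at 10.5 and Polg2 at 5.39 FPKM. Taken over all 6 libraries, the steps between Ssbp1 and Tfam, Polrmt and Polg, Polg and Tfb2m, and Top1mt and Polg2 had no overlap in their ranges. The other neighbours in this order overlapped. The catalytic subunit gene Polg was thus above its accessory subunit gene Polg2 in 6 of 6 libraries, and the packaging factor Tfam was above Tfb1m in 5 of 6.

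**Figure D1:**
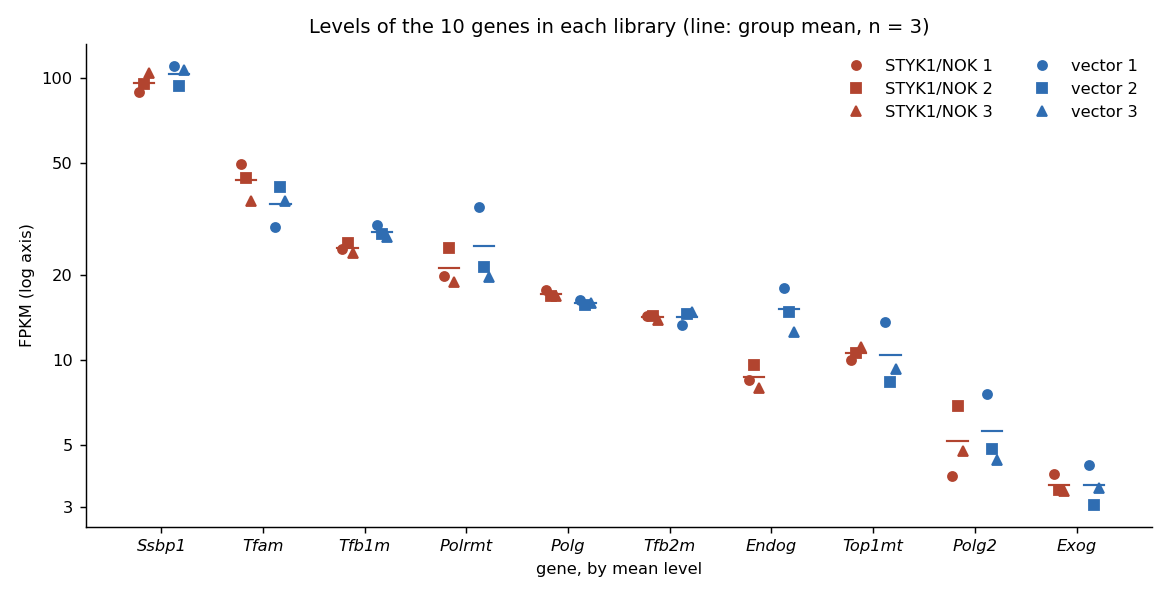
FPKM (log axis) of the 10 genes in each library, ordered by mean level; red points are STYK1/NOK libraries, blue points vector libraries, and lines the group means (n = 3). Endog is the gene whose red points, 7.94 to 9.6 FPKM, lie well below its blue points, 12.59 to 17.95 FPKM, while most other pairs of groups overlap.

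Endog, the gene selected on this contrast, lay lower in every STYK1 library than in any vector library. Endog (Gene ID 101827104) was at 8.46, 9.6 and 7.94 FPKM in STYK1 1, 2 and 3, and at 17.95, 14.78 and 12.59 FPKM in vector 1, 2 and 3. Every STYK1 library lay below every vector library, and the vector libraries differed more among themselves than the STYK1 libraries did. Group means were 8.67 ± 0.849 FPKM in STYK1 and 15.1 ± 2.69 FPKM in vector libraries (SD, n = 3 each), a change in the mean of -42.6%. On the log2(FPKM + 1) scale the difference, STYK1 minus vector, was -0.73, and it was -0.60 without vector 1. Over all tested genes 0.297% had a difference as low or lower, but Endog entered the list by this very value, so it is a description with no test.

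Exog, the related nuclease (Gene ID 101827617), measured 3.93, 3.45 and 3.42 FPKM in STYK1 libraries and 4.25, 3.06 and 3.51 FPKM in vector libraries. The groups overlapped fully and their means were 3.60 ± 0.286 and 3.61 ± 0.601 FPKM (STYK1 and vector, SD, n = 3 each). The log2 difference of Exog was 0.0042, and its 95% interval ran from -0.33 to 0.34 (limma-trend, adjusted p = 0.990).

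Of the transcription genes, Polrmt encodes the RNA polymerase of mitochondria (Gene ID 101841657). It was at 19.85, 24.92 and 18.89 FPKM in STYK1 1, 2 and 3, and at 34.83, 21.35 and 19.69 FPKM in vector 1, 2 and 3. Vector 1 was far above the other libraries, which overlapped. On the log2 scale the difference was -0.21 ± 0.21 (SE), and its 95% interval ran from -0.69 to 0.27 (limma-trend, adjusted p = 0.630), and without vector 1 it had the other sign, 0.04.

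Tfam, whose product packages mitochondrial DNA and bends it at promoters (Gene ID 110342418), had the higher mean in STYK1 libraries. It measured 49.42, 44.32 and 36.52 FPKM in STYK1 libraries and 29.68, 41.12 and 36.76 FPKM in vector libraries. STYK1 1 and 2 lay above all vector libraries, but STYK1 3 lay just under vector 3, so the groups overlapped. The mean was 21.1% higher in STYK1, with a log2 difference of 0.27 ± 0.15 (SE) and an interval of -0.07 to 0.61, which did not pass (limma-trend, adjusted p = 0.474). Without vector 1, the lowest library for this gene, the difference was 0.14.

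Tfb1m and Tfb2m encode a related pair of proteins: TFB2M opens the promoter for POLRMT, and TFB1M methylates the RNA of the small mitochondrial ribosomal subunit. Tfb1m (Gene ID 101830212) measured 24.74, 25.99 and 23.94 FPKM in STYK1 libraries, against 30.01, 27.91 and 27.3 FPKM in vector libraries. Like Endog, it had all STYK1 libraries below all vector libraries, but the mean was lower by a smaller amount, 24.9 ± 1.03 FPKM in STYK1 and 28.4 ± 1.42 FPKM in vector (SD, n = 3 each). Its log2 difference of -0.18 ± 0.09 (SE) had an interval of -0.39 to 0.02 and did not pass (limma-trend, adjusted p = 0.469). Tfb2m (Gene ID 101837617) showed almost no difference, with 14.3, 14.27 and 13.88 FPKM in STYK1 and 13.35, 14.57 and 14.81 FPKM in vector libraries. The groups overlapped, and the interval of its log2 difference ran from -0.23 to 0.21 (limma-trend, adjusted p = 0.973).

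Of the replication genes, Polg, the catalytic subunit of the DNA polymerase (Gene ID 101823480), was the steadiest. It was at 17.69, 16.84 and 16.92 FPKM in STYK1 libraries and at 16.28, 15.62 and 15.94 FPKM in vector libraries, so all STYK1 libraries lay above all vector libraries, by a mean of 7.55%. Of the 500 tested genes nearest to it in level, 0.6% had a smaller replicate SD than its 0.03 log2 units. Even so, the difference of 0.10 ± 0.09 (SE) did not pass the test, which shares its estimate of the spread across genes (limma-trend, interval -0.10 to 0.30, adjusted p = 0.596). Polg2, the accessory subunit (Gene ID 101831658), varied far more. It measured 3.88, 6.87 and 4.76 FPKM in STYK1 libraries and 7.6, 4.82 and 4.4 FPKM in vector libraries, with the highest value in vector 1, the next in STYK1 2, the lowest in STYK1 1 and overlap between the groups. Its replicate SD of 0.36 log2 units was above that of 88.4% of the 500 genes nearest in level. The difference was -0.10 with an interval of -0.63 to 0.43 (limma-trend, adjusted p = 0.851), and 0.11 without vector 1.

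Ssbp1 (Gene ID 101840707) measured 89.49, 95.42 and 104.53 FPKM in STYK1 libraries and 110.57, 94.18 and 107.05 FPKM in vector libraries. The groups overlapped and the means differed by -7.17%. Its log2 difference of -0.11 had an interval of -0.33 to 0.12 (limma-trend, adjusted p = 0.602), and it was -0.06 without vector 1 and 0.0051 when libraries were scaled to equal FPKM sums. Top1mt, the topoisomerase that relaxes mitochondrial DNA (Gene ID 101833035), measured 10.02, 10.57 and 11.13 FPKM in STYK1 libraries and 13.61, 8.37 and 9.29 FPKM in vector libraries. Vector 1 was the highest library and the other vector libraries were the lowest, so the STYK1 libraries lay between them. The difference was 0.04 with an interval of -0.34 to 0.43 (limma-trend, adjusted p = 0.912). Without vector 1 it was 0.24, with all STYK1 libraries above both vector libraries left, and still did not pass (adjusted p = 0.522).

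The other 9 genes showed no common direction. At an adjusted p under 0.05, 0 of the 9 passed (limma-trend, smallest adjusted p = 0.469), as did 0 of all 11464 tested genes (0% called). At an unadjusted p under 0.05, 0 of the 9 passed, against 9.84% of all tested genes. By sign, 5 of the 9 had a log2 difference below 0 and 4 above, against 47.3% of all genes below 0. The median of the 9 was -0.0077, beside 0.01 over all genes. The groups did not overlap for 2 of the 9, Tfb1m lower and Polg higher in STYK1, where 23.1% of all tested genes had groups without overlap, 13.6% higher and 9.44% lower. The 95% intervals of the 9 spanned -0.69 to 0.61 in all, and each held 0. These intervals are not adjusted for many genes, and they leave room for differences of 0.20 to 0.53 log2 units on either side of the estimate.

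**Figure D2:**
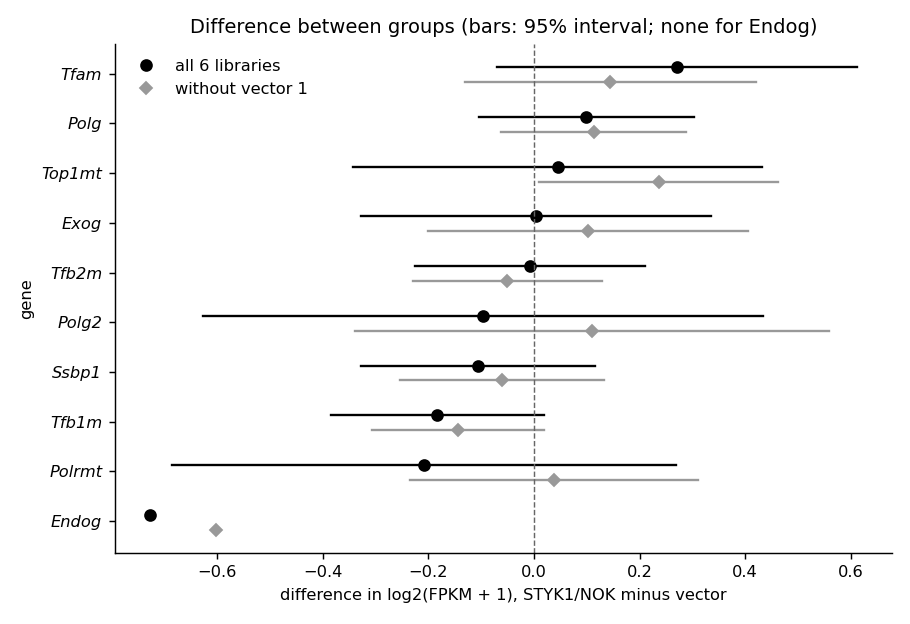
Difference in log2(FPKM + 1), STYK1/NOK minus vector, for each gene with all 6 libraries (black) and without vector 1 (grey); bars are 95% intervals from limma-trend, and Endog, whose difference chose the list, has none. Endog lies at -0.73 by the choice of the list, and the intervals of the other 9 hold 0 with all libraries.

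Vector 1 was the highest of the 6 libraries for 7 of the 10 genes, the lowest for Tfam and Tfb2m, and an inner value for Polg. It was also the highest library for 37.1% and the lowest for 36.3% of all tested genes. Relative to the vector mean, the 9 others averaged -0.04, 0.05 and -0.07 log2 units in STYK1 1, 2 and 3, and 0.15, -0.08 and -0.07 in vector 1, 2 and 3. The STYK1 libraries thus lay at the level of vector 2 and 3 or above it. Leaving vector 1 out gave a median of 0.10 over the 9, with 3 of 9 below 0, again 0 passing (limma-trend), and 1, Top1mt, at an unadjusted p under 0.05, where 9.45% of all genes were. Groups then did not overlap for 4 of the 9 (Tfb1m and Tfb2m lower, Polg and Top1mt higher in STYK1), beside 29.7% of all tested genes, 17.9% higher and 11.8% lower.

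**Figure D3:**
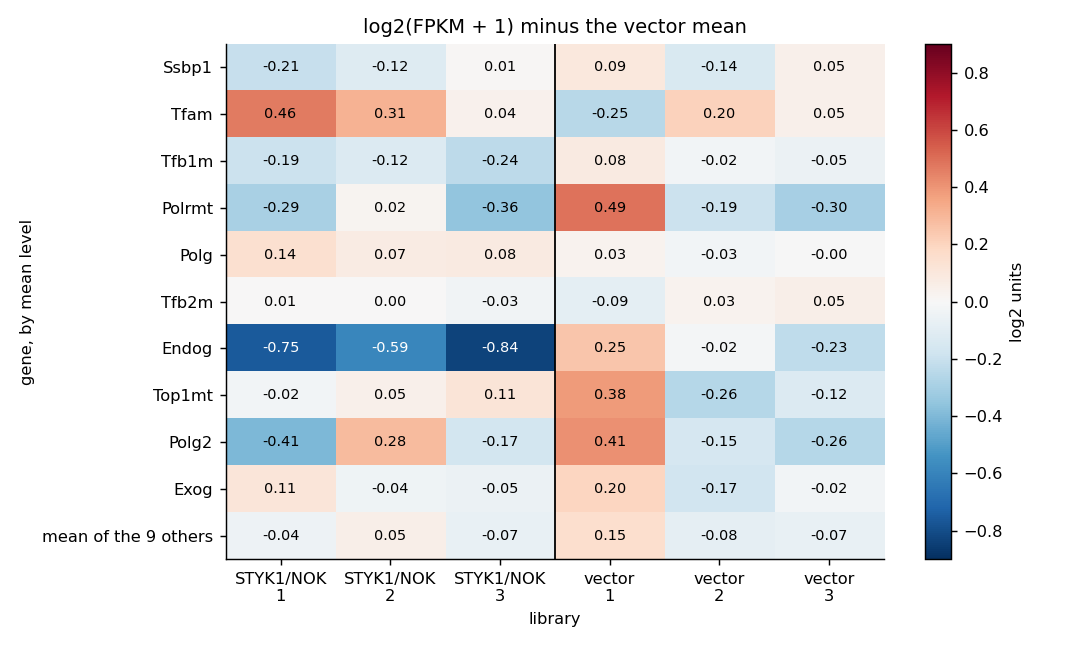
Level of each gene in each library as log2(FPKM + 1) minus its mean in the vector libraries (colour and printed value, log2 units), STYK1/NOK libraries left of vector libraries, with the mean of the 9 genes other than Endog in the bottom row. The Endog row is at -0.59 to -0.84 in the STYK1/NOK libraries, whereas the vector 1 column is high for Polrmt (0.49), Polg2 (0.41) and Top1mt (0.38).

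Ratios of related genes within a library do not depend on a single scaling factor for that library, though quantile normalization could change them. These ratios were chosen after the values were seen, so their p-values are descriptions only. The adjustment does not cover ratios that were not chosen. Endog was 2.15, 2.78 and 2.32 times as high as Exog in STYK1 libraries, and 4.22, 4.83 and 3.59 times as high in vector libraries. The ratio was lower in all STYK1 libraries, again as a description, and its log2 difference of -0.80 was -0.79 without vector 1. Endog also changed places with Top1mt: it was above Top1mt in 0 of 3 STYK1 libraries and in 3 of 3 vector libraries. The ratio of Tfb1m to Tfb2m was 1.76 ± 0.0543 in STYK1 and 2.002 ± 0.216 in vector libraries (SD, n = 3 each), without overlap. Its log2 difference was -0.18, and -0.10 without vector 1. The exact permutation p (two-sided) was 0.1, which is as small as 3 against 3 allow, and 0.4 after Benjamini-Hochberg adjustment over the 4 ratios tested. The ratio of Polg to Polg2 was 3.52 ± 1.05 in STYK1 and 3.002 ± 0.769 in vector libraries, with overlap (exact permutation p = 0.6, adjusted 0.6), and its log2 difference of 0.22 was -0.0060 without vector 1. Tfam over Polrmt was 2.49, 1.78 and 1.93 in STYK1 libraries and 0.852, 1.93 and 1.87 in vector libraries, where vector 1 alone had more Polrmt than Tfam (exact permutation p = 0.4, adjusted 0.533). On the log2 scale that difference was 0.49, and 0.11 without vector 1. Tfam over Ssbp1 was 0.455 ± 0.102 in STYK1 and 0.349 ± 0.0843 in vector libraries (exact permutation p = 0.2, adjusted 0.4), a log2 difference of 0.39 that was 0.21 without vector 1.

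**Figure D4:**
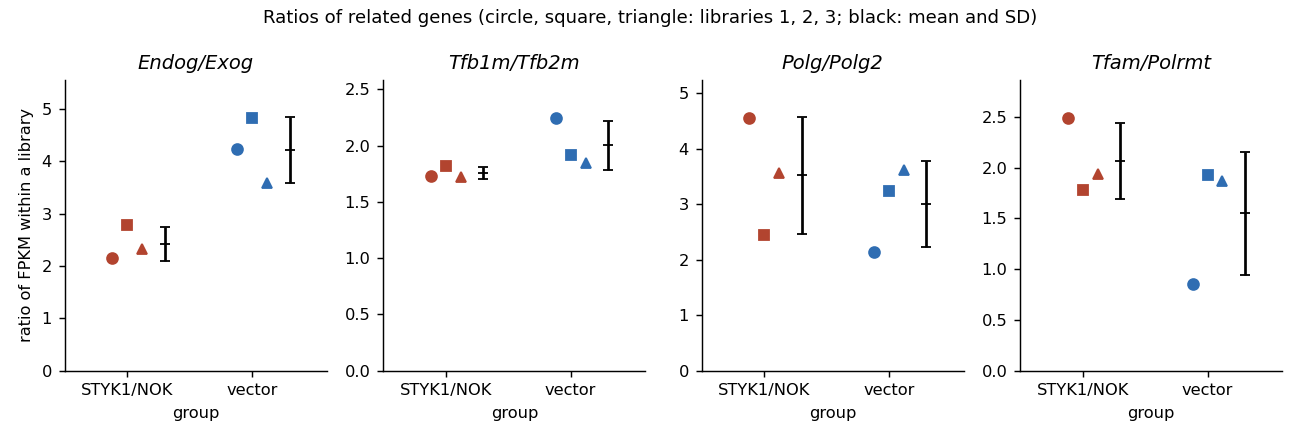
Ratio of FPKM of 2 related genes within each library (axes start at 0), STYK1/NOK left and vector right; circles, squares and triangles are libraries 1, 2 and 3, and black bars the mean and SD (n = 3). The ratio Endog/Exog is 2.15 to 2.78 in STYK1/NOK and 3.59 to 4.83 in vector libraries, and Polg/Polg2 overlaps between the groups.

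Among genes outside the list, those with a profile over the 6 libraries most like that of Endog were Dpm2, Dnph1, Ifi35, Nol3 and Med11, measured as the root mean square difference of centred log2(FPKM + 1) values. That distance was 0.11 for Dpm2, a subunit of dolichol-phosphate mannose synthase, 0.12 for Dnph1, a nucleotide hydrolase, 0.12 for Ifi35, an interferon-induced gene, 0.13 for Nol3, an inhibitor of cell death, and 0.13 for Med11, of the Mediator complex. Dpm2 measured 102.52, 104.23 and 94.98 FPKM in STYK1 and 186.89, 136.21 and 126.6 FPKM in vector libraries. As in Endog, vector 1 was its highest library and all STYK1 libraries were below all vector libraries. This likeness follows from how Dpm2 was picked. Among the 9 members the distance ran from 0.29 for Polrmt and Tfb1m to 0.57 for Tfam, while the median over all tested genes was 0.42. Tfam and Polg (0.44) lay above that median and the other members under it. Vector 1, the highest library for Endog, Polrmt and Tfb1m, is part of this distance, which was not computed without it.

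The wider machinery of mitochondrial DNA was described through 6 lists of other nuclear genes, of which 70 of the 74 found in the files passed the filter. At an adjusted p under 0.05, 0 of the 70 passed (limma-trend), and at an unadjusted p under 0.05 there were 4 (Elac2, Fastk, Slc25a4 and Slc25a36), beside 9.84% of all tested genes. Their median log2 difference was -0.02, beside 0.01 for all genes. Groups did not overlap for 13 of the 70, 7 higher and 6 lower in STYK1, against 23.1% of all tested genes. The 13 protein genes of the mitochondrial genome itself were not analysed here, so the output of the transcription genes could not be set beside them.

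Replication and repair partners had 10 tested genes, 4 above 0 and 6 below, and a median of -0.02. The 4 with the smallest p all had overlapping groups: Lig3, the DNA ligase of mitochondria, measured 16.2 ± 1.83 FPKM in STYK1 and 14.5 ± 0.874 FPKM in vector libraries (SD, n = 3 each). Rnaseh1, which removes RNA primers, measured 26.96 ± 2.97 FPKM in STYK1 and 25.1 ± 0.323 FPKM in vector. The glycosylase gene Mutyh averaged 3.98 ± 0.649 FPKM in STYK1 and 4.58 ± 1.04 FPKM in vector, and the primase-polymerase gene Primpol 8.89 ± 1.2 FPKM in STYK1 and 7.92 ± 2.14 FPKM in vector. Without vector 1 the difference of Mutyh was -0.03, against -0.16, and that of Primpol was -0.05, against 0.17. None passed (limma-trend, smallest adjusted p = 0.546).

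Elongation, processing and turnover of mitochondrial transcripts had 20 tested genes with a median of -0.05, 8 above 0 and 12 below. Elac2, which cuts transfer RNAs at their trailing end, was at 14.9, 14.43 and 13.46 FPKM in STYK1 libraries and at 18.87, 16.59 and 16.82 FPKM in vector libraries, without overlap. Its difference was -0.27 ± 0.10 (SE), and -0.22 without vector 1 (limma-trend, adjusted p = 0.469 with all libraries). Fastk, a regulator of mitochondrial RNA, measured 38.9 ± 2.77 FPKM in STYK1 and 47.6 ± 6.63 FPKM in vector libraries, also without overlap, and its difference of -0.28 was -0.17 without vector 1. The other way round, Grsf1, an RNA-binding protein of mitochondrial RNA granules, measured 52.6 ± 3.21 FPKM in STYK1 and 43.2 ± 8.57 FPKM in vector, without overlap. Its difference of 0.30 was 0.12 without vector 1. Of all tested genes, 9.44% had groups without overlap and lower in STYK1, and 13.6% without overlap and higher. Tbrg4, of the same family as Fastk, averaged 19.8 ± 1.08 FPKM in STYK1 and 22.6 ± 2.16 FPKM in vector, with overlap and a difference of -0.18 that was -0.12 without vector 1.

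Nucleotide supply had 11 tested genes, 4 above 0 and 7 below, with a median of -0.12, which was -0.02 without vector 1. Slc25a4, the muscle-type carrier that exchanges ADP and ATP, was at 126.35, 117.17 and 118.67 FPKM in STYK1 libraries and at 147.68, 140.43 and 130.53 FPKM in vector libraries. Suclg1, of succinate-CoA ligase, measured 131.7 ± 0.896 FPKM in STYK1 and 144.3 ± 6.98 FPKM in vector libraries. Both had all STYK1 libraries below all vector libraries, as did 9.44% of all tested genes. Slc25a36, a pyrimidine nucleotide carrier, had the largest difference of the 70 genes, 0.55 ± 0.22 (SE), at 12.28, 10.39 and 8.65 FPKM in STYK1 and 4.46, 8.48 and 7.91 FPKM in vector libraries. The difference was 0.30 without vector 1, and it did not pass with all libraries (limma-trend, adjusted p = 0.469). All STYK1 libraries of Slc25a36 lay above all its vector libraries, as in 13.6% of all tested genes. Nme4, a mitochondrial nucleoside diphosphate kinase, averaged 37.2 ± 5.39 FPKM in STYK1 and 49.3 ± 17.1 FPKM in vector; its difference of -0.36 was -0.09 without vector 1.

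Nucleoid and distribution genes had 10 tested members with a median of -0.02, 4 above 0 and 6 below. Opa1, which fuses the inner membrane, measured 40.4 ± 1.24 FPKM in STYK1 and 34.9 ± 3.27 FPKM in vector libraries, and Dnm1l, which divides mitochondria, 46.1 ± 0.965 FPKM in STYK1 and 41.2 ± 4.11 FPKM in vector. Both lay higher in all STYK1 libraries, as did 13.6% of all tested genes. Phb2, a scaffold of the inner membrane, lay lower in all of them, as did 9.44% of tested genes, at 199.7 ± 15.5 FPKM in STYK1 and 237.5 ± 35.0 FPKM in vector. Without vector 1 the differences of all 3 were smaller: 0.13 against 0.21 for Opa1, 0.08 against 0.17 for Dnm1l, and -0.12 against -0.24 for Phb2. Mrpl12, a ribosomal protein known to bind POLRMT, averaged 54.0 ± 4.90 FPKM in STYK1 and 66.8 ± 16.3 FPKM in vector, with overlap, and its difference of -0.28 was -0.09 without vector 1.

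Nuclear regulators of mitochondrial biogenesis had a median of 0.14, with 9 of 10 tested genes above 0. Groups did not overlap for 3, all higher in STYK1, beside 13.6% of all tested genes. Gabpa, the DNA-binding subunit of NRF-2, which is known in human cells for binding promoters of the TFB genes, measured 35.29, 35.79 and 35.06 FPKM in STYK1 libraries and 20.14, 32.34 and 33.96 FPKM in vector libraries. Vector 1 was far below the rest, and the difference of 0.32 was 0.09 without it (limma-trend, adjusted p = 0.474 with all libraries). Creb1 averaged 14.1 ± 0.985 FPKM in STYK1 and 12.2 ± 0.615 FPKM in vector, and Yy1 38.8 ± 2.77 FPKM in STYK1 and 34.5 ± 4.32 FPKM in vector; both are sequence-specific transcription factors with many targets. Esrra, an orphan nuclear receptor that works with PGC-1 coactivators, was the gene below 0, at 9.92 ± 0.696 FPKM in STYK1 and 11.9 ± 2.53 FPKM in vector. Without vector 1 the median of the list was 0.08, the difference of Yy1 was 0.07, against 0.17, and that of Esrra was -0.07, against -0.23.

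The last list held other death factors of the intermembrane space and other DNA nucleases, the nearest companions of Endog by role. Of its 9 tested genes 3 were above 0 and 6 below, with a median of -0.02. Dnase2, the lysosomal nuclease, was at 82.26, 84.06 and 79.25 FPKM in STYK1 libraries and at 122.46, 90.75 and 89.63 FPKM in vector libraries, without overlap, and its difference of -0.28 ± 0.13 (SE) was -0.14 without vector 1 (limma-trend, adjusted p = 0.469 with all libraries). Htra2, a protease released in dying cells, averaged 25.3 ± 1.47 FPKM in STYK1 and 32.5 ± 9.04 FPKM in vector, with a difference of -0.32 that was -0.11 without vector 1. The repair endonuclease gene Apex1 averaged 48.4 ± 2.42 FPKM in STYK1 and 56.0 ± 11.1 FPKM in vector, and its difference of -0.19 was -0.04 without vector 1. Dffa, the inhibitor of the caspase-activated nuclease, was at 2.93, 2.25 and 2.0 FPKM in STYK1 and at 2.46, 1.02 and 2.49 FPKM in vector libraries. Its difference of 0.22 was 0.34 without vector 1, but -0.04 without vector 2, the lowest library for this gene. Over the 9 tested genes the differences ran from -0.32 to 0.22. Groups did not overlap for 1 of the 9, Dnase2, beside 23.1% of all tested genes, 9.44% of them lower in STYK1.

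**Figure D5:**
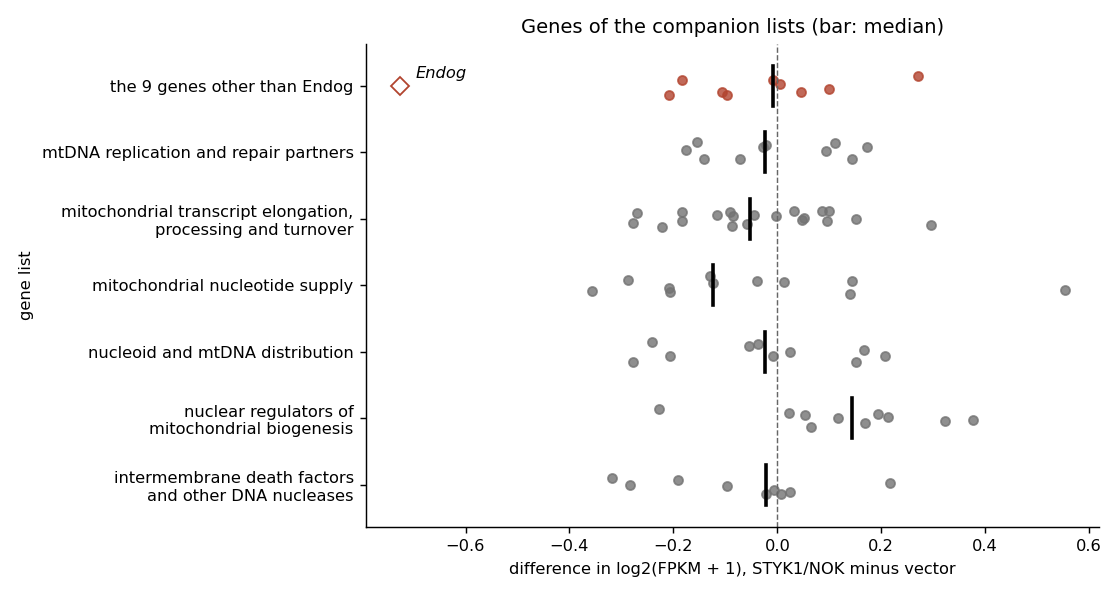
Difference in log2(FPKM + 1), STYK1/NOK minus vector, for each tested gene of the 9 members other than Endog (red) and of the 6 companion lists (grey), with the median of each list as a black bar and Endog as an open diamond. The medians lie between -0.12 and 0.14; Endog, at -0.73, was selected on its low value.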

How the data were processed

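Libraries were made from 1 ug of total RNA with an Illumina TruSeq kit, per the labels' protocols. Per the file headers, the authors deposited FPKM, with 1 column per library. The submitters' processing notes list Bowtie 0.12.2 and the mouse builds mm8 and mm9 without saying what each was for, although the IDs match hamster genes. Not given in the sources used here are the program that computed FPKM, its annotation, and whether strand and shared reads were considered, which makes overlapping genes and paralogs uncertain. Of 16078 IDs, 15049 matched the RefSeq gene table of BCM_Maur_2.0, used for names only.

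The 11464 genes at a mean of 1 FPKM or more in either group were tested on log2(FPKM + 1), a scale that understates differences of low genes. The test was limma-trend with robust empirical Bayes (limma 3.58.1, R 4.3.3), with Benjamini-Hochberg adjustment over all tested genes. The code was tested on simulated data. Depth was compared through the most frequent ratio of values between 0.8 and 6 FPKM. The members and the companion and marker lists were chosen with earlier results of these data known. Named companion genes are the 4 of smallest p in each list; the 5 genes nearest to Endog were ranked over genes with a full symbol. Companion genes whose symbol had no match were not analysed here, and planned promoter and protein sequences were not used here. Alternatives were 15: another pseudocount, 2 other filters, 3 scalings, ordinary empirical Bayes, quality weights, a replicate block and each library left out.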

Additional observations from a re-analysis of the deposited data

How the results depend on the processing

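Under 15 alternatives, 0 of the 9 other members and 0 companion genes passed (limma). Endog stayed below 0, between -0.84 and -0.60, and Tfb1m, Tfam and Polg kept their sign. With quality weights 24 genes passed over all tested, against 0, and leaving out 1 library gave 0 to 2. Genes at an unadjusted p under 0.05 numbered 1128, against 2365 with weights and 352 to 1709 with 1 library left out. Among the 9, 0 were at that level, against 1 with median centring (Tfb1m), 2 with weights (Tfb1m and Top1mt) and 0 to 1 with 1 library left out. Equal FPKM sums moved Endog to -0.62 from -0.73, and the median of the 9 to 0.093 from -0.0077. The same scaling moved the median of all genes to 0.12 from 0.01, and left 3 of the 9 below 0 against 5. It turned Tfb2m to 0.10 and Ssbp1 to 0.0051. Exog turned to -0.024 with median centring and -0.063 with quantile normalization. With 1 library left out, the median of the 9 ran from -0.084 to 0.10 (highest without vector 1), and values that changed sign ran from -0.083 to 0.10 for Exog, -0.051 to 0.019 for Tfb2m, -0.36 to 0.037 for Polrmt, -0.29 to 0.11 for Polg2, -0.084 to 0.24 for Top1mt, -0.046 to 0.29 for Primpol and -0.044 to 0.35 for Dffa; the cause was not tested. At a minimum of 5 FPKM, Exog gave no value. Same-numbered libraries correlated in their deviations at -0.27, -0.16 and 0.11, so the numbers were not taken as pairs; with the replicate number as a block, the median of the 9 was -0.0077, Endog was at -0.73, 0 genes passed and 831 were at an unadjusted p under 0.05. Absolute depth is unknown, so no counting error is given.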
